A study of Mus musculus with 12 samples.

Results

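The 9 genes described here, Oxtr, Mfng, Mtss1, Dennd2d, Prkce, Pon1, Ppp2r5a, Oscp1, and Star, were highest in mouse epididymal white adipose tissue (eWAT) with 4°C and were lower again in at least 1 group kept below 0°C. They were chosen by their measured group means. In each, the mean with 4°C exceeded that with 30°C, and the mean with –10°C or with –10°C/–20°C lay below that with 4°C. They are 9 of 14860 genes measured, 5914 of which (39.8%) had group means of this shape. What the choice used is therefore given as a description with no test, and tests are kept for the subzero groups against 30°C and against each other. The samples were 12 Affymetrix Mouse Exon 1.0 ST arrays of eWAT from male C57BL/6J mice, 3 arrays for each of 4 groups. The mice were 7 to 8 weeks old at the start. One group was moved directly to 30°C, where a mouse needs no extra heat production. The other groups spent 1 week at 18°C and 1 week at 4°C, and 1 of them remained at 4°C. The remaining groups were adapted stepwise and then kept for 3 weeks at –10°C, or at –20°C by day and –10°C by night (–10°C/–20°C, shortened to –20°C in the labels), for 5 weeks of exposure in all. The labels number the arrays as biological replicates but name no mouse or litter, so that p-values measure the spread between arrays. Values are log2 signals, on which a difference of 1 is a doubling.

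The 9 genes do not belong to a single pathway. Oxtr encodes the receptor for the peptide hormone oxytocin, which signals through Gq proteins, phospholipase C, and protein kinase C, and Prkce encodes a protein kinase C that is activated by diacylglycerol without calcium. Mfng is a fringe, a Golgi enzyme that adds sugar to Notch receptors and changes which ligands they answer. Mtss1 is an I-BAR protein that bends membranes and binds actin, and Dennd2d carries a DENN domain, a fold found in activators of Rab GTPases, the switches of vesicle traffic. Ppp2r5a is a regulatory B56 subunit of protein phosphatase 2A. Pon1 is a secreted paraoxonase carried on high-density lipoprotein (HDL) and made mainly in liver. Star moves cholesterol into mitochondria at the start of steroid hormone synthesis, and Oscp1 is named as a partner of organic solute carriers. In white adipose tissue, cold acts through sympathetic nerves and drives breakdown of stored triglyceride, and prolonged cold can add brown-like, heat-producing adipocytes.

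The promoters of 4 of the genes are shown because these 4 had a larger fall with –10°C/–20°C than with –10°C and a promoter entry in RefSeq (GRCm38.p6). Each window searched ran 250 bases before to 50 bases after the annotated start, 5′ to 3′ on the gene's strand. Shown are the 250 bases before the start, with capitals for the letters of any motif found on either strand.
Oxtr, chr6:112489826-112490075, minus strand: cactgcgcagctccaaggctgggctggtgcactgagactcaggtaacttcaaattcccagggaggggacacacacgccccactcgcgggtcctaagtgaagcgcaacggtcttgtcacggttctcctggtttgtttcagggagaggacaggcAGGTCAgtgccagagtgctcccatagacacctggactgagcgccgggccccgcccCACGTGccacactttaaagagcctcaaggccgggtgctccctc
Pon1, chr6:5193947-5194196, minus strand: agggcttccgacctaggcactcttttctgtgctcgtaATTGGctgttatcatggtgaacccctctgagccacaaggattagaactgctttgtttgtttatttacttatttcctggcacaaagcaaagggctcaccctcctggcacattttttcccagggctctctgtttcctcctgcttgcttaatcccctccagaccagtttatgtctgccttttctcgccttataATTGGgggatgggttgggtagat
Ppp2r5a, chr1:191397042-191397291, minus strand: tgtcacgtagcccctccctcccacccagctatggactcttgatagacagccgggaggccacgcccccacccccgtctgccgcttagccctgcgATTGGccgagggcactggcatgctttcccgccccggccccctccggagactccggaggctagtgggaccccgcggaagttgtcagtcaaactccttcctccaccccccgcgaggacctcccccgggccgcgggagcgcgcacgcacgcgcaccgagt
Oscp1, chr4:126058315-126058564, plus strand: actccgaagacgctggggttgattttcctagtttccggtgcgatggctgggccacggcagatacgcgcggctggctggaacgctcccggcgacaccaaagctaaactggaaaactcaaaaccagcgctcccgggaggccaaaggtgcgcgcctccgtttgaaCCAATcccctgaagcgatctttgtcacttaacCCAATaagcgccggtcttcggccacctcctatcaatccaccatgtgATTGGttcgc
Entries were found for 5 of the 9 genes, with 7 windows, 3 of them for alternative starts of Dennd2d. The E-box CACGTG, a letter pattern that includes the sites of clock factors and MYC, was read in Oxtr only, at position -43 from the start, and in 7.15% of all 32851 promoters. The nuclear receptor half-site AGGTCA was read in Oxtr at position -98 and in 1 Dennd2d window, and 16.3% of all promoters hold it. CCAAT was read in Pon1, Ppp2r5a, and Oscp1, 3 times in Oscp1, and in 37.4% of all promoters. The cyclic AMP response element half-site TGACG (20.8% of all promoters), TATAAA (13.6%), and the FOXO site TGTTTAC (3.65%) were read in none of the 7 windows. No 2 of the 9 hits overlapped. The 4 promoters shown thus share no motif of those searched. A match is a run of letters and not a measured site.

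Star, Mfng, and Dennd2d were lower in both subzero groups than with 4°C, with no overlap between the arrays. Star had log2 signals of 5.03, 4.78, and 4.95 with 30°C, 6.32, 6.57, and 6.26 with 4°C, 5.03, 5.39, and 5.21 with –10°C, and 5.41, 5.41, and 5.21 with –10°C/–20°C. All 3 arrays with 4°C stood above the 9 others. The means were 4.92 ± 0.13 with 30°C, 6.38 ± 0.16 with 4°C, 5.21 ± 0.18 with –10°C, and 5.34 ± 0.12 at –10°C/–20°C (SD, n = 3 each). The level with 4°C was 2.76-fold that with 30°C, and 79.9% of this log2 difference was gone with –10°C and 71.0% with –10°C/–20°C. In bulk tissue, fewer cells of a type and less RNA per cell cannot be told apart. Star is best known from steroid-making cells of testis, ovary, and adrenal. On these arrays the steroid enzymes Cyp11a1, Cyp17a1, and Hsd3b1 lay below background on all 12 arrays, as did 5 other measured markers of epididymis and testis, 8 of 11 in all. Background is a log2 signal of 4.52, below which 95% of olfactory receptor genes lay. The summed signal of these 11 markers was 127 to 139 with 30°C, 119 to 146 with 4°C, 132 to 172 with –10°C, and 111 to 141 at –10°C/–20°C, ranges that overlap.

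Mfng had log2 signals of 7.88, 7.46, and 7.86 with 30°C, 9.64, 9.12, and 9.45 with 4°C, 8.66, 8.34, and 8.73 with –10°C, and 8.66, 7.84, and 8.12 with –10°C/–20°C. Both subzero groups lay between 4°C and 30°C, apart from 1 array with –10°C/–20°C (7.84) within the 30°C range. The means were 7.74 ± 0.24, 9.41 ± 0.26, 8.58 ± 0.21, and 8.21 ± 0.42 (SD, n = 3 each, in the order of falling temperature), a 3.18-fold difference of 4°C over 30°C. Mfng is also made by lymphocytes. The summed signal of 7 lymphocyte markers was 442 to 671 with 30°C, 321 to 670 with 4°C, 249 to 556 with –10°C, and 245 to 330 at –10°C/–20°C. Their mean log2 signal was 5.98, 5.70, 5.36, and 4.98 in the same order, so that these markers did not peak with 4°C.

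Dennd2d lay below its 30°C level in both subzero groups. Its log2 signals were 7.84, 8.15, and 7.93 with 30°C, 8.86, 8.37, and 8.45 with 4°C, 7.27, 7.30, and 7.25 with –10°C, and 7.58, 7.47, and 7.12 with –10°C/–20°C. All 6 subzero arrays lay below the lowest array with 30°C. The means were 7.97 ± 0.16 with 30°C, 8.56 ± 0.26 with 4°C, 7.27 ± 0.03 with –10°C, and 7.39 ± 0.24 at –10°C/–20°C (SD, n = 3 each). Its difference of 4°C over 30°C, 1.50-fold, was the smallest of the 9 genes, and its level with –10°C, 2.44-fold below that with 4°C, was the largest difference between these groups among the 9.

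**Figure D1:**
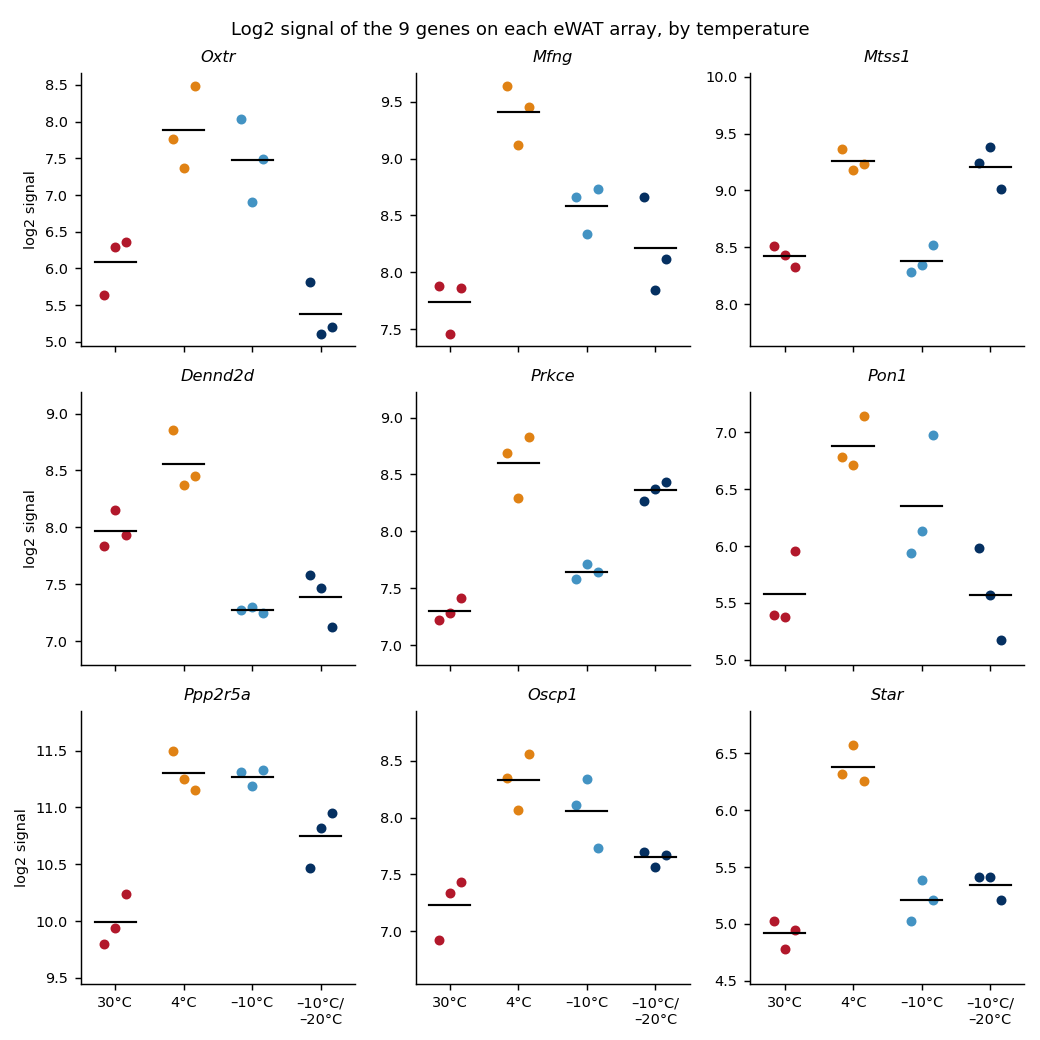
Log2 signal (vertical axis) of the 9 genes on each of the 12 eWAT arrays (points), by group (horizontal axis, 3 arrays each), with the group mean as a line. The 3 arrays with 4°C lie above the 3 with 30°C for each gene, while the subzero groups differ from gene to gene: Oxtr had a mean of 7.48 with –10°C and 5.38 with –10°C/–20°C, and Mtss1 8.38 and 9.21.

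Oxtr, Pon1, Ppp2r5a, and Oscp1 kept more of their 4°C level with –10°C than with –10°C/–20°C. Oxtr had log2 signals of 5.64, 6.29, and 6.36 with 30°C, 7.77, 7.37, and 8.49 with 4°C, 8.04, 6.90, and 7.49 with –10°C, and 5.82, 5.11, and 5.20 with –10°C/–20°C. The arrays with –10°C overlapped those with 4°C, and the arrays with –10°C/–20°C reached below those with 30°C. The means were 6.09 ± 0.40 with 30°C, 7.88 ± 0.57 with 4°C, 7.48 ± 0.57 with –10°C, and 5.38 ± 0.39 at –10°C/–20°C (SD, n = 3 each). Oxtr was 3.44-fold higher with 4°C than with 30°C and 5.66-fold higher with 4°C than with –10°C/–20°C, the widest differences among the 9 genes in both directions. Its height over the nearer of 30°C and the lower subzero group, 1.78 on the log2 scale, ranked second to Dbp among all genes of this shape.

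Pon1 had log2 signals of 5.39, 5.38, and 5.96 with 30°C, 6.78, 6.71, and 7.14 with 4°C, 5.94, 6.13, and 6.98 with –10°C, and 5.98, 5.57, and 5.17 with –10°C/–20°C. The –10°C arrays were spread from the 30°C range to the 4°C range (mean 6.35 ± 0.56), and with –10°C/–20°C the mean of 5.57 ± 0.40 was that of 30°C, 5.58 ± 0.33 (SD, n = 3 each). Among liver markers, Ttr and Fgb lay below background on all arrays, and Alb had a mean of 6.58 ± 0.65 with 30°C, 5.75 ± 0.30 with 4°C, 6.75 ± 0.48 with –10°C, and 5.67 ± 0.44 at –10°C/–20°C. The summed signal of the 6 liver markers was 5749 to 6505 with 30°C, 6362 to 7080 with 4°C, 6082 to 6866 with –10°C, and 6925 to 7779 at –10°C/–20°C. Their mean log2 signal was only 6.25, 6.07, 6.34, and 6.57 in the same order. The sum thus rests on few bright markers, which do not include Alb, Ttr, or Fgb, and is no measure of liver content. Of these 6, 0 were called with 4°C against 30°C (median log2 difference -0.07) and 1 with –10°C/–20°C against 4°C (median 0.02).

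Ppp2r5a had log2 signals of 9.80, 9.94, and 10.24 with 30°C, 11.50, 11.25, and 11.15 with 4°C, 11.31, 11.19, and 11.33 with –10°C, and 10.47, 10.82, and 10.95 with –10°C/–20°C. The groups with 4°C and –10°C overlapped, with means of 11.30 ± 0.18 and 11.27 ± 0.07, and the coldest group was lower, at 10.75 ± 0.25, which was above the 9.99 ± 0.22 with 30°C (SD, n = 3 each). A dimmer Ppp2r5a probe set had means of 5.08 ± 0.40, 6.18 ± 0.89, 6.06 ± 0.53, and 4.89 ± 0.41 in the same order of temperatures, with 1 array with 4°C (5.20) inside the 30°C range. It had the same shape with a wider spread, and differed from the brighter probe set in that its coldest group lay at the 30°C level.

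Oscp1 had log2 signals of 6.92, 7.34, and 7.43 with 30°C, 8.35, 8.07, and 8.56 with 4°C, 8.11, 8.34, and 7.73 with –10°C, and 7.70, 7.57, and 7.67 with –10°C/–20°C. The mean was 7.23 ± 0.27 with 30°C and 8.33 ± 0.24 with 4°C, then stepped down to 8.06 ± 0.31 with –10°C and 7.65 ± 0.07 with –10°C/–20°C (SD, n = 3 each). Every subzero array remained above every 30°C array.

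Mtss1 and Prkce were low with –10°C and high again with –10°C/–20°C. Mtss1 had log2 signals of 8.51, 8.43, and 8.33 with 30°C, 9.36, 9.18, and 9.23 with 4°C, 8.28, 8.34, and 8.52 with –10°C, and 9.24, 9.38, and 9.01 with –10°C/–20°C. Its arrays formed a high pair of groups, 4°C and –10°C/–20°C, and a low pair, 30°C and –10°C, with no overlap between the pairs. The means were 8.42 ± 0.09 with 30°C, 9.26 ± 0.09 with 4°C, 8.38 ± 0.13 with –10°C, and 9.21 ± 0.19 at –10°C/–20°C (SD, n = 3 each). Prkce had log2 signals of 7.22, 7.28, and 7.41 with 30°C, 8.69, 8.29, and 8.83 with 4°C, 7.58, 7.71, and 7.64 with –10°C, and 8.27, 8.37, and 8.43 with –10°C/–20°C. It split the same way, except that the –10°C arrays (mean 7.64 ± 0.06) all lay above the 30°C arrays (7.30 ± 0.09). With 4°C and –10°C/–20°C the means were 8.60 ± 0.28 and 8.36 ± 0.08 (SD, n = 3 each), with overlapping arrays. Across the 12 arrays these 2 genes had the closest course of any pair of the 9 (Pearson's r = 0.90), while Oxtr and Mtss1 had r = -0.07. The arrays share their groups, and after removal of the group means r was -0.01 for Mtss1 and Prkce.

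**Figure D2:**
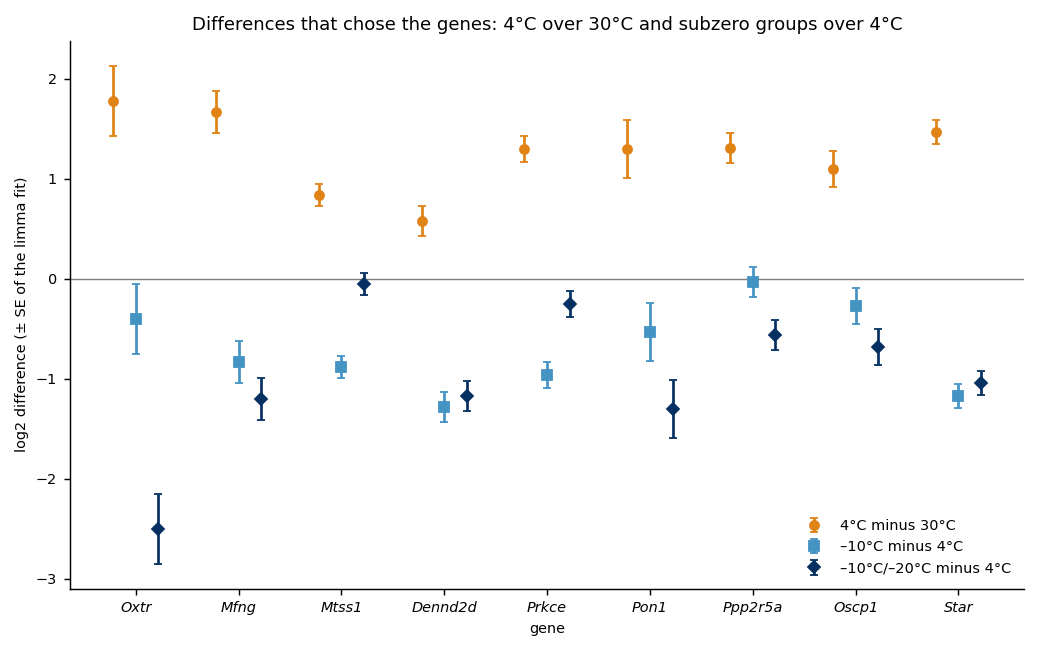
Log2 difference (vertical axis, with the SE of the limma fit) of 4°C minus 30°C (circles), –10°C minus 4°C (squares), and –10°C/–20°C minus 4°C (diamonds) for the 9 genes (horizontal axis). The positive circles and the negative squares or diamonds are what the genes were chosen by. Ppp2r5a with –10°C (-0.03) and Mtss1 with –10°C/–20°C (-0.05) sit next to 0, and Oxtr with –10°C/–20°C reaches -2.50.

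For all 9 genes the 3 arrays with 4°C lay above the 3 with 30°C, which 9.56% of all genes did. For 5, Mfng, Mtss1, Dennd2d, Prkce, and Star, the –10°C arrays lay below the 4°C arrays (5.64% of all genes), and for all but Mtss1 and Prkce the –10°C/–20°C arrays did (17.4%). These counts follow from the choice of the genes. The median log2 difference of 4°C over 30°C was 1.30 for the 9 genes and 0.01 for all genes. The rule asks only for a difference above 0, and the height over the nearer side was lowest in Ppp2r5a (0.56) and Dennd2d (0.58), with 93 genes outside the 9 above Ppp2r5a. Of the 12 arrays, 4 (replicates 1 and 2 of 30°C and of 4°C) carry names of another form in a table of the study. No source states whether this naming marks a batch. The difference of 4°C over 30°C was positive for all 9 genes among the arrays of either form, at 0.61 to 1.71 on the log2 scale in that form and 0.52 to 2.13 in the other form, which had 1 array per group for this comparison. Among arrays of the other form, Ppp2r5a was higher with –10°C than with 4°C by 0.12.

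The subzero groups were tested against 30°C with limma, with Benjamini-Hochberg adjustment over all 14860 genes. These comparisons share their arrays with the choice, and each is the sum of 2 contrasts that it used. The comparison between the subzero groups is a difference of such contrasts. These tests are therefore not independent of the choice, and shares of all genes are given for scale only. With –10°C against 30°C, 4 of the 9 genes rose, namely Ppp2r5a, Oxtr, Mfng, and Oscp1, and 1 fell, Dennd2d. Over all genes 5.30% rose and 3.03% fell. Ppp2r5a was 2.44-fold higher with –10°C (log2 difference 1.29 ± 0.15 SE, adjusted p = 0.001). Oxtr was 2.61-fold higher (1.39 ± 0.35 SE, adjusted p = 0.031), Mfng 1.79-fold (0.84 ± 0.21 SE, adjusted p = 0.034), and Oscp1 1.77-fold (0.83 ± 0.18 SE, adjusted p = 0.016). Dennd2d fell by 0.70 ± 0.15 SE on the log2 scale (adjusted p = 0.015). The arrays of the 2 groups did not overlap for these 5, nor for Prkce and Star, which were not called. The share of all genes without overlap was not counted for this comparison. Of the 4 genes whose –10°C arrays overlapped those with 4°C, all but Pon1 were called above 30°C there. They were grouped by the same –10°C arrays, so that this follows in part from the grouping. Pon1 (0.77 ± 0.29 SE, adjusted p = 0.14), Prkce (0.34 ± 0.13 SE, adjusted p = 0.14), Star (0.29 ± 0.12 SE, adjusted p = 0.2), and Mtss1 (-0.04 ± 0.11 SE, adjusted p = 0.92) did not pass the test.

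Of these calls, that of Ppp2r5a held without any 1 array. That of Oxtr was lost without 30°C replicate 1 (adjusted p = 0.12) or 2 (0.066) and without –10°C replicate 1 (0.12) or 3 (0.086). That of Mfng was lost without the same 4 arrays (adjusted p = 0.067, 0.13, 0.11, and 0.12), and that of Dennd2d without 30°C replicate 2 (0.067) and –10°C replicate 1 (0.054) or 3 (0.052). That of Oscp1 was lost without 30°C replicate 1 (0.065) and –10°C replicate 1 (0.061) or 2 (0.067). Prkce passed only without 4°C replicate 2 (adjusted p = 0.042). With the naming form as a block, Oxtr (adjusted p = 0.28), Mfng (0.22), Oscp1 (0.17), and Dennd2d (0.14) were not called, with log2 differences of 0.95, 0.76, 0.61, and -0.63. With this block, then, only Ppp2r5a passed. Mfng was also lost with repeated quantile normalization (0.051) and with centring (0.065), and Oscp1 in a fit of these groups alone (0.056). The dimmer probe set of Ppp2r5a was not called, with a log2 difference of 0.97 with –10°C against 30°C (adjusted p = 0.21) and of -0.20 with –10°C/–20°C against 30°C (adjusted p = 0.84).

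With –10°C/–20°C against 30°C, 4 genes rose, Prkce, Mtss1, Ppp2r5a, and Star, and again Dennd2d fell. Over all genes 7.19% rose and 11.0% fell. Prkce was 2.08-fold higher (log2 difference 1.05 ± 0.13 SE, adjusted p = 2.4e-04), Mtss1 1.72-fold (0.79 ± 0.11 SE, adjusted p = 6.4e-04), Ppp2r5a 1.69-fold (0.76 ± 0.15 SE, adjusted p = 0.0046), and Star 1.34-fold (0.43 ± 0.12 SE, adjusted p = 0.032). Dennd2d fell by 0.58 ± 0.15 SE on the log2 scale (adjusted p = 0.02). Only Ppp2r5a and Dennd2d were thus called against 30°C in both subzero groups. Mfng (0.47 ± 0.21 SE, adjusted p = 0.17), Oscp1 (0.42 ± 0.18 SE, adjusted p = 0.15), and Oxtr (-0.72 ± 0.35 SE, adjusted p = 0.2) did not pass, and Pon1 had a difference of 0.00 ± 0.29 SE. Star was not called without 30°C replicate 2 (adjusted p = 0.12) or 3 (0.064) or without –10°C/–20°C replicate 1 (0.087) or 2 (0.1), and Dennd2d not without 30°C replicate 2 (0.08) or –10°C/–20°C replicate 3 (0.08). With the naming form as a block both were lost (Star 0.087, Dennd2d 0.13), and Dennd2d was also lost after centring of the arrays on their medians (0.13).

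**Figure D3:**
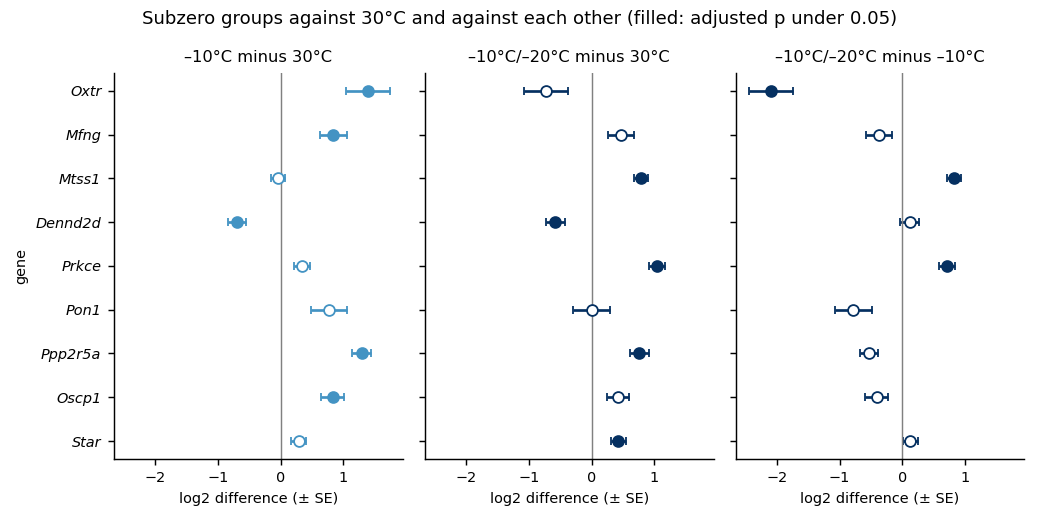
Log2 difference (horizontal axis, with SE of the limma fit) of the 9 genes (rows) for –10°C minus 30°C, –10°C/–20°C minus 30°C, and –10°C/–20°C minus –10°C, filled where the adjusted p over 14860 genes was under 0.05. Ppp2r5a is filled to the right and Dennd2d to the left in both comparisons with 30°C, and Oxtr (-2.10) and Mtss1 (0.83) are filled on opposite sides in the comparison of the subzero groups.

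With –10°C/–20°C against –10°C, Mtss1 and Prkce rose and Oxtr fell, where 2.02% of all genes rose and 5.14% fell. Oxtr was 4.30-fold lower with –10°C/–20°C (log2 difference -2.10 ± 0.35 SE, adjusted p = 0.006). Mtss1 was 1.78-fold higher (0.83 ± 0.11 SE, adjusted p = 0.0021) and Prkce 1.64-fold higher (0.71 ± 0.13 SE, adjusted p = 0.0088). These 3 differences passed without any 1 array. All subzero arrays carry names of the same form, so that the naming form as a block cannot test this comparison. So the oxytocin receptor on the one hand, and the I-BAR protein and the kinase on the other, moved in opposite directions between the subzero groups. These genes were grouped above by the same subzero arrays, so that the directions follow in part from the grouping. Ppp2r5a was lower by 0.53 ± 0.15 SE but missed the threshold (adjusted p = 0.058), and passed without 30°C replicate 3 (0.045) and among genes above background on at least 3 arrays (0.045). Pon1 (-0.78 ± 0.29 SE, adjusted p = 0.14), Oscp1 (-0.41 ± 0.18 SE, adjusted p = 0.22), Mfng (-0.37 ± 0.21 SE, adjusted p = 0.39), Star (0.13 ± 0.12 SE, adjusted p = 0.64), and Dennd2d (0.12 ± 0.15 SE, adjusted p = 0.76) were not called.

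The relatives of the 9 genes were read from 9 lists, with 106 of 129 genes measured. They were not chosen by the rule and could be tested in its contrasts. With 4°C against 30°C, 3 relatives rose and 1 fell (3.77%, with 3.04% of all genes called), and the median log2 difference was 0.02. With –10°C against 4°C limma called 0 relatives, and the same was true of the methods' t-test after adjustment, with 9 relatives at an unadjusted p under 0.05 and 0.0404% of all genes called. With –10°C/–20°C against 4°C, 3 rose and 12 fell (14.2%, with 9.77% of all genes called), and the median was -0.08. In the contrasts that the rule did not use, 8 rose and 8 fell with –10°C against 30°C (15.1%, with 8.34% of all genes called), 10 rose and 24 fell with –10°C/–20°C against 30°C (32.1%, with 18.2% of all genes called), and 4 rose and 6 fell with –10°C/–20°C against –10°C (9.43%, with 7.16% of all genes called).

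**Figure D4:**
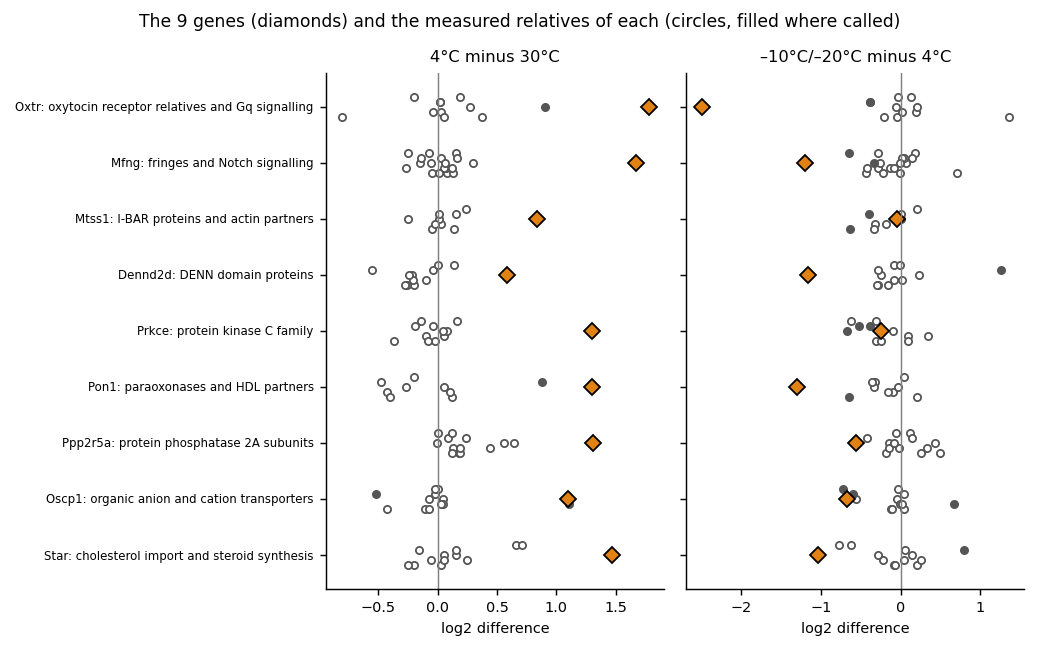
Log2 difference (horizontal axis) of 4°C minus 30°C and of –10°C/–20°C minus 4°C for the 9 genes (diamonds, 1 per row) and for the 106 measured relatives in the list of each gene (circles, filled where adjusted p was under 0.05, spread vertically for sight only). With 4°C over 30°C the diamonds lie at 0.58 to 1.78 and right of the circles of their own row, other than Slc22a4 (1.11), which lies behind the diamond of Oscp1 (1.10).

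Among ligands and receptors next to Oxtr, oxytocin itself (Oxt) had means of 5.77 ± 0.15 with 4°C and 5.81 ± 0.17 with 30°C, and the vasopressin receptor Avpr1a 5.92 ± 0.55 with 4°C and 6.73 ± 0.29 with 30°C (SD, n = 3 each, adjusted p = 0.97 and 0.17). Downstream, the phospholipase Plcb1 rose with 4°C, 7.53, 7.30, and 7.31 with 4°C against 6.30, 6.47, and 6.69 with 30°C (log2 difference 0.90 ± 0.13 SE, adjusted p = 0.0056). Unlike Oxtr, Plcb1 stayed high with –10°C/–20°C, at 7.35, 7.66, and 7.76 (1.10 ± 0.13 SE against 30°C, adjusted p = 2.2e-04). Rgs2, an inhibitor of Gq signalling, rose in the coldest group, with 9.52 ± 0.27 with –10°C/–20°C and 7.86 ± 0.75 with –10°C (SD, n = 3 each, log2 difference 1.66 ± 0.41 SE, adjusted p = 0.036). This call was lost without 30°C replicate 2 (0.054), –10°C replicate 1 (0.13) or 3 (0.059), or any 1 array with –10°C/–20°C (0.061, 0.093, and 0.12). The naming form as a block cannot test this difference, as all subzero arrays share a form. It left the difference at 1.66, with an adjusted p of 0.053. By group mean, the receptor was lowest and this inhibitor highest in the same group. There, however, Oxtr was not called against 30°C (adjusted p = 0.2). Rgs2 was called against 30°C (1.41 ± 0.41 SE, adjusted p = 0.036, in 14 of 21 alternatives) but not against 4°C (1.36 ± 0.41 SE, adjusted p = 0.064). A link between them was not tested. Of 11 genes listed with the protein kinases C, 0 were called with 4°C against 30°C. The list also holds the other kinases Pkn2, Pkn3, Prkd1, Prkd3, and Pdpk1. Prkci, Prkca, and Prkcq fell with –10°C/–20°C against 4°C. Prkci, an atypical kinase of cell polarity, measured 7.90, 7.97, and 8.15 with –10°C/–20°C against 8.74, 8.78, and 8.55 with 4°C (-0.68 ± 0.14 SE, adjusted p = 0.01). Prkca fell by 0.53 ± 0.11 SE on the log2 scale (adjusted p = 0.013, lost without 4°C replicate 1 at 0.063 and without –10°C/–20°C replicate 3 at 0.057, and with centring at 0.14 and quantile normalization at 0.063), while Prkce stood at 8.36 with –10°C/–20°C and 8.60 with 4°C. Prkcq had a mean of 4.40 with –10°C/–20°C, below background on all but 1 array, and 4.78 with 4°C (adjusted p = 0.025). Its call was lost without 4°C replicate 1 (0.078) or 2 (0.09), without –10°C/–20°C replicate 2 (0.1) or 3 (0.089), with the naming form as a block (0.15), and with centring (0.3), where the log2 difference was -0.21.

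Of the other fringes, Lfng had means of 7.94 ± 0.08 with 4°C and 8.19 ± 0.04 with 30°C and Rfng 7.58 ± 0.06 with 4°C and 7.52 ± 0.14 with 30°C (SD, n = 3 each), and neither was called between these groups (adjusted p = 0.41 and 0.92). Lfng fell with –10°C/–20°C against 30°C by 0.53 ± 0.12 SE on the log2 scale (adjusted p = 0.011), where 11.0% of all genes fell. This call held in 19 of 21 alternatives and was lost with centring (0.14). Lfng, Rfng, and the other close kin named here outside the rule (Oxt, Pon2, Pon3, Tspo, Ppp2ca, Ppp2r5c, Ppp2r5d, Ppp2r5e, Notch2, Dennd1c, Sbf2, Madd) were picked after their values were seen. Of 18 fringe and Notch genes, 0 were called with 4°C against 30°C. With –10°C/–20°C against 4°C, Nrarp, a Notch target that restrains the pathway, fell by 0.65 ± 0.16 SE on the log2 scale (adjusted p = 0.027) and Notch2 fell by 0.34 (adjusted p = 0.015). Hey2, another Notch target, rose with –10°C/–20°C against 30°C by 0.84 (adjusted p = 0.021), and was not called against 4°C (0.71 ± 0.22 SE, adjusted p = 0.07). The Hey2 call was lost without 30°C replicate 2 (0.081) or –10°C/–20°C replicate 2 (0.087) and with the naming form as a block (0.092). The Nrarp call was lost without any 1 array with 4°C (0.078, 0.083, and 0.055) or –10°C/–20°C replicate 2 (0.11) or 3 (0.1), and that of Notch2 without 4°C replicate 1 (0.058) or 2 (0.059) or –10°C/–20°C replicate 2 (0.058) or 3 (0.059). With the naming form as a block, repeated quantile normalization, and centring, Nrarp (0.082, 0.14, and 0.13) and Notch2 (0.1, 0.056, and 0.34) were also lost, and Notch2 had a log2 difference of -0.16 with centring. Against 30°C, –10°C/–20°C was lower for Nrarp by 0.72 ± 0.16 SE (adjusted p = 0.0094) and for Notch2 by 0.40 (adjusted p = 0.0034). Each of these calls against 30°C held in 20 of 21 alternatives, with that of Notch2 lost with centring (0.13). Among I-BAR proteins and actin partners 0 of 9 were called with 4°C, and Baiap2, another I-BAR protein, fell in the coldest group, with 7.06, 6.91, and 7.17 with –10°C/–20°C against 7.64, 7.83, and 7.59 with 4°C (-0.64 ± 0.10 SE, adjusted p = 0.0024). Mtss1 had a mean of 9.21 in that group and 9.26 with 4°C. Of 11 DENN proteins, 2 fell with –10°C against 30°C, as Dennd2d and 3.03% of all genes did, namely Dennd1c (-0.42, adjusted p = 0.021, called in 14 of 21 alternatives) and Sbf2 (-0.41, adjusted p = 0.017, called in 16 of 21). Of the same proteins, 5 fell with –10°C/–20°C against 30°C, where 11.0% of all genes fell. These were Dennd1a (-0.48, called in 20 of 21 alternatives), Dennd1c (-0.47, 18 of 21), Dennd4b (-0.56, 18 of 21), Madd (-0.32, 10 of 21), and Sbf2 (-0.44, 20 of 21). With centring, Madd had a difference of -0.16 (adjusted p = 0.37). Dennd2a rose with –10°C/–20°C against 30°C (0.70, adjusted p = 0.027, called in 16 of 21 alternatives and lost without 30°C replicate 1 at 0.085 or 2 at 0.093, without –10°C/–20°C replicate 2 at 0.1, and with the naming form as a block at 0.11). Dennd2a also rose against 4°C, with 6.88, 7.15, and 6.80 with –10°C/–20°C against 5.72, 5.91, and 5.44 with 4°C (1.26 ± 0.19 SE, adjusted p = 0.0026), and with 4°C it was not called against 30°C (-0.55 ± 0.19 SE, adjusted p = 0.19).

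Of the other paraoxonases, neither Pon2 nor Pon3 was called with 4°C against 30°C. Pon2 had means of 8.38 ± 0.07 with 4°C and 8.28 ± 0.11 with 30°C, and Pon3 9.95 ± 0.14 with 4°C and 9.90 ± 0.17 with 30°C (SD, n = 3 each, adjusted p = 0.79 and 0.95). Pon3 fell with –10°C/–20°C against –10°C by 0.57 on the log2 scale (adjusted p = 0.019), lost without –10°C replicate 1 (0.086) or 3 (0.065), without –10°C/–20°C replicate 2 (0.078), and with centring (0.15), while Pon1 had a difference of -0.78 that was not called. The HDL receptor Scarb1 rose with 4°C (9.71 ± 0.37 with 4°C and 8.83 ± 0.13 with 30°C, log2 difference 0.88 ± 0.18 SE, adjusted p = 0.025), a call lost without 30°C replicate 1 (0.066) or 2 (0.1) and without 4°C replicate 1 (0.1) or 3 (0.082), with centring (0.077), and in a fit of these groups alone (0.11). Pltp, which transfers phospholipid to HDL, fell with –10°C/–20°C against 4°C by 0.65 ± 0.10 SE on the log2 scale (adjusted p = 0.0021). Of 13 genes listed with Ppp2r5a, which are other subunits of protein phosphatase 2A and Set, 0 were called in any of the 3 contrasts of the rule. The B56 subunits Ppp2r5b, Ppp2r5c, Ppp2r5d, and Ppp2r5e differed by 0.24, 0.00, 0.12, and 0.19 between 4°C and 30°C, against 1.31 for Ppp2r5a. Against 30°C, 2 of the 13 rose with –10°C, Ppp2r5b (0.50, adjusted p = 0.041, called in 8 of 21 alternatives) and Ppp2r1b (0.61, adjusted p = 0.049, called in 7 of 21). A further 2 rose with –10°C/–20°C, Ppp2ca, a catalytic subunit (0.44, adjusted p = 0.0049, called in 19 of 21), and Ppp2r2d (0.67, adjusted p = 0.045, called in 10 of 21). Among the transporters listed with Oscp1, the carnitine and ergothioneine carrier Slc22a4 had means that stepped up with cold, 7.34 ± 0.29 with 30°C, 8.45 ± 0.24 with 4°C, 8.65 ± 0.07 with –10°C, and 9.13 ± 0.28 at –10°C/–20°C (SD, n = 3 each). Its log2 difference was 1.11 ± 0.18 SE with 4°C against 30°C (adjusted p = 0.0081) and 0.67 ± 0.18 SE with –10°C/–20°C against 4°C (adjusted p = 0.035). The second call was lost without 4°C replicate 1 (0.067) or 2 (0.13), –10°C replicate 1 (0.051) or 3 (0.05), or –10°C/–20°C replicate 2 (0.14) or 3 (0.088), and with the naming form as a block (log2 difference 0.46, adjusted p = 0.26). Slco2b1, an organic anion carrier, fell with 4°C against 30°C by 0.52 ± 0.10 SE on the log2 scale (adjusted p = 0.023), lost without 30°C replicate 2 (0.066) or 4°C replicate 1 (0.088) or 3 (0.091). It also fell against 30°C with –10°C (-1.05 ± 0.10 SE, adjusted p = 5.4e-04) and –10°C/–20°C (-1.13 ± 0.10 SE, adjusted p = 5.6e-05). These 2 calls held in 20 and 21 of 21 alternatives. Next to Star, 0 of 12 genes of cholesterol import and steroid synthesis were called with 4°C against 30°C. The mitochondrial cholesterol-binding protein Tspo had means of 9.63 ± 0.08 with 4°C and 9.87 ± 0.24 with 30°C (SD, n = 3 each, adjusted p = 0.38). The related Stard5 measured 8.89 ± 0.48 with –10°C/–20°C and 8.09 ± 0.06 with 4°C (SD, n = 3 each, log2 difference 0.80 ± 0.22 SE, adjusted p = 0.039), and was called in 9 of 21 alternatives, with adjusted p from 0.0099 to 0.27.

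Among 10763 genes above background on at least 3 arrays, the 5 closest to the mean standardized course of the 9 genes over the 12 arrays were Prkar2b (Pearson's r = 0.95), Nol6 (0.93), Fam117a (0.92), Gprc5b (0.91), and Chn1 (0.91). The arrays share their groups, so that r mostly reflects 4 group means. Prkar2b, the regulatory subunit of protein kinase A that prevails in adipocytes, had log2 signals of 10.18, 10.38, and 10.50 with 30°C, 11.25, 11.02, and 11.06 with 4°C, 10.52, 10.60, and 10.72 with –10°C, and 10.62, 10.32, and 10.61 with –10°C/–20°C. Its 4°C arrays stood above all 9 others. The closest single genes were Natd1 to Oxtr (0.97), Fam117a to Mfng (0.95), Hlf to Mtss1 (0.94), Ada to Dennd2d (0.93), Stk35 to Prkce (0.94), Ndc1 to Pon1 (0.90), Mfsd8 to Ppp2r5a (0.96), Gprc5b to Oscp1 (0.92), and Dbp to Star (0.91).

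Outside the 9 genes, the highest peaks with 4°C were those of Dbp (2.35 above the nearer side on the log2 scale), Bhlhe41 (1.49), Rasd1 (1.45), Per3 (1.34), and Hcar2 (1.32). Dbp, Hlf, Per3, and Bhlhe41 are parts or outputs of the circadian clock. Dbp had log2 signals of 7.16, 7.68, and 7.29 with 30°C, 10.98, 10.75, and 10.83 with 4°C, 7.49, 8.80, and 9.21 with –10°C, and 9.76, 9.35, and 8.60 with –10°C/–20°C. Its 4°C arrays stood apart, and those with –10°C were spread over most of the range between 30°C and –10°C/–20°C. Per3 had means of 6.70 ± 0.22 with 30°C, 8.04 ± 0.12 with 4°C, 6.60 ± 0.37 with –10°C, and 7.34 ± 0.24 at –10°C/–20°C, and Hlf 6.13 ± 0.09, 7.34 ± 0.15, 6.38 ± 0.34, and 7.15 ± 0.16 in the same order (SD, n = 3 each). Both thus had the low, high, low, high order of Mtss1 and Prkce. The sources used here do not give the hour of tissue collection. Hcar2, the adipocyte receptor for nicotinic acid and ketone bodies that holds back lipolysis, resembled Oxtr, with 7.40, 7.94, and 8.38 with 30°C, 9.23, 9.12, and 9.34 with 4°C, 8.85, 9.14, and 9.10 with –10°C, and 7.77, 6.05, and 6.58 with –10°C/–20°C.

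**Figure D5:**
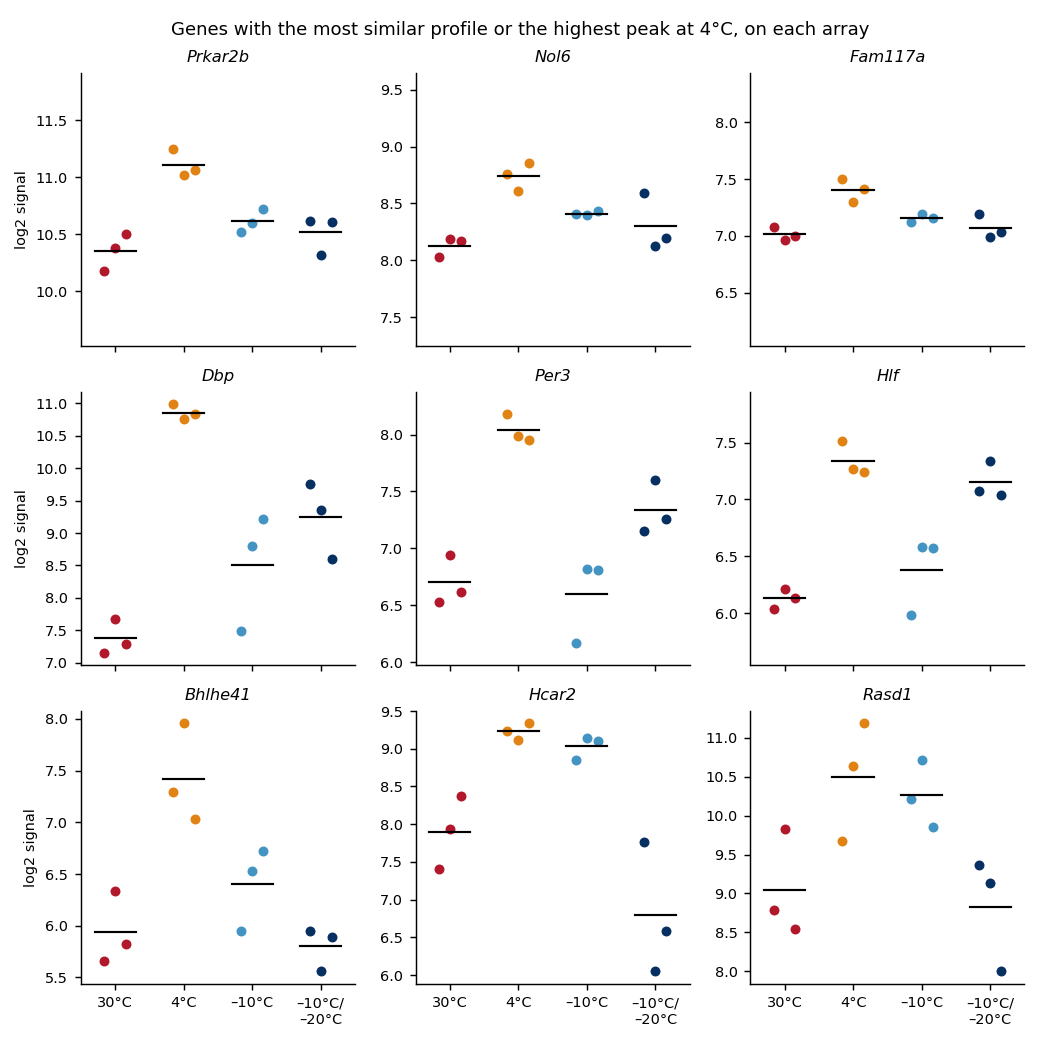
Log2 signal (vertical axis) on each array (points) by group (horizontal axis, 3 arrays each), with the group mean as a line, for 3 genes closest to the mean course of the 9 genes, 5 with the highest peaks at 4°C outside them, and Hlf. Per3 and Hlf are high with 4°C (8.04 and 7.34) and –10°C/–20°C (7.34 and 7.15), and Hcar2 is low with –10°C/–20°C (6.80).

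Across the series, array medians ran from 5.19 to 5.44 and 10210 to 10541 genes lay above background on an array. Correlations within groups (r = 0.974 to 0.993) and between groups (0.966 to 0.992) overlapped. Of 7 adipocyte markers, 0 were called with 4°C against 30°C (median log2 difference 0.16) or with –10°C against 4°C (median -0.06). Their summed signal was 23507 to 24533 with 30°C, 25371 to 26851 with 4°C, 24078 to 25365 with –10°C, and 24346 to 27104 at –10°C/–20°C. All arrays with 4°C thus lay above all those with 30°C, but above those with –10°C by a very small margin (25371 against 25365). The range with –10°C/–20°C covered that with 4°C. For Mfng, Mtss1, Dennd2d, Prkce, and Star, too, the 4°C arrays lay above those with 30°C and with –10°C. Macrophage markers were lower at each step of cold, at 3814 to 4727, 3056 to 3217, 2177 to 2540, and 1794 to 2066 in the same order, with 5 of 7 called lower with –10°C/–20°C against 30°C, while brown fat markers summed to 160 to 180, 289 to 470, 756 to 1046, and 1182 to 1860, with 5 of 7 called higher. The macrophage and brown fat lists moved in 1 direction with temperature, while the adipocyte sum did not. The part of these 3 lists in the values of the 9 genes was not tested.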

How the data were processed

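RNA of eWAT was measured on 12 arrays. Per the submitters' processing notes, the authors ran RMA (background correction, quantile normalization, and probe summary) in Affymetrix Expression Console, and the log2 signals they deposited were used unchanged. No version is stated. Symbols came from the platform annotation. Of 23332 probe sets, 14996 had 1 symbol, 1019 several, and 7317 none, and the brightest row was kept for each of 14860 genes. Background was the 95th percentile (4.52) of 718 olfactory receptor genes. For arrays, their number limits the precision.

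Each gene was fitted over the 4 groups with limma 3.58.1 under R 4.3.3 by lmFit followed by eBayes, with Benjamini-Hochberg adjustment over all genes, and called at an adjusted p under 0.05. The procedure was tested on simulated data. Other software was Python 3.11.15, matplotlib 3.10.9, pandas 2.3.3, and numpy 2.4.6. The 9 genes, the lists of their relatives and markers, and the motifs were chosen with earlier results of these data known. The rule for naming took all 9 genes, up to 3 called relatives per list with the largest difference (otherwise the brightest), the 5 genes closest to the mean course, 1 closest gene per member, and the 5 highest other peaks. Of the relatives it took, Dll1, Cttn, Ptprd, Abcg1, Slco3a1, Stard6, and Vdac1 are not described in the text. The close kin listed above as outside the rule were added. Sequences are from RefSeq, GRCm38.p6. Pearson's r is given across arrays with no test. Columns of the study's own comparisons were not used.

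Alternatives, 21 per result, were only the groups compared, the replicate block, the naming form as a block, eBayes with trend and robust fit, 10772 genes above background on at least 3 arrays, repeated quantile normalization, centring on array medians, the methods' t-test, all rows with 1 symbol, and each of the 12 arrays left out.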

Additional observations from a re-analysis of the deposited data

How the results depend on the processing

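With –10°C against 30°C, 5 of the 9 genes were called, 1 with the naming form as a block, 0 with the methods' t-test after adjustment, and 1 to 6 without any 1 array, the 1 being without –10°C replicate 1. With –10°C/–20°C against 30°C, 5 were called, 3 with that block, 1 with the t-test, and 3 to 5 without any 1 array. With –10°C/–20°C against –10°C, 3 were called, 0 with the t-test, and 3 to 4 without any 1 array. Of 106 relatives, 4 were called with 4°C against 30°C, 1 with only these groups, 7 with repeated quantile normalization, 0 with the t-test, and 2 to 7 without any 1 array. None were called with –10°C against 4°C in any alternative. With –10°C/–20°C against 4°C, 15 were called, 7 with only these groups, 6 with the naming form as a block, 1 with the t-test, and 6 to 16 without any 1 array, the 6 being without 4°C replicate 1. The t-test estimates the spread of each gene from 6 arrays alone. The causes of the other changes were not tested.

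Of 18 pairs of same-numbered arrays, 11 deviated together with r over 0.1. The range was 0.17 to 0.45 for replicate 1, -0.02 to 0.54 for replicate 2, and -0.39 to 0.41 for replicate 3, and 5 of 12 arrays were closest to their own number. As not every pair did so and no label ties the numbers to a shared litter, batch, or day, the arrays were not taken as paired. With the replicate block, 5, 6, and 3 of the 9 genes were called in the 3 tested comparisons and 6, 0, and 16 relatives in those of the rule. The added call was Mfng with –10°C/–20°C against 30°C (adjusted p = 0.021).

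Differences close to 0 changed sign. Ppp2r5a with –10°C against 4°C (-0.03) became 0.07 and 0.01 without 4°C replicate 1 and –10°C replicate 2, with a range of -0.10 to 0.07 without any 1 array. Mtss1 with –10°C/–20°C against 4°C (-0.05) became 0.01 with the naming form as a block, 0.13 with centring, 0.00 without 4°C replicate 1, and 0.05 without –10°C/–20°C replicate 3 (range -0.14 to 0.05 without any 1 array), and with –10°C against 30°C (-0.04) it became 0.02 with that block and 0.01 without –10°C replicate 1 (range -0.11 to 0.01). Pon1 with –10°C/–20°C against 30°C (0.00) became 0.15 with quantile normalization and with centring, 0.19 without 30°C replicate 3, and 0.00 and 0.20 without –10°C/–20°C replicates 2 and 3 (range -0.21 to 0.20). Centring moved the median of all genes with –10°C/–20°C against 30°C to 0.13, where it was -0.03. Of the 567 alternative values of the 9 genes in the tested comparisons, 514 kept their direction and call, 42 lost the call, 4 gained it, and 7 changed sign. Motif counts covered the 250 bases before the start as well, where every hit lay.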
